A study of Homo sapiens with 6 samples.

Results

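The genes described here are cytokines and chemokines that a carcinoma cell can secrete: IL32, IL6, CXCL8 (interleukin 8, IL8 in older annotation), CXCL1, CXCL2, CXCL3, LIF, CCL2, CCL20 and IL1A. They were taken by symbol from the annotation used here, which names only probes of the authors' processed table, a part of the array. Every probe named there for a gene was taken, and 3 of the 10 genes had at least 1. These were IL32 with 2 probes, CXCL8 with 2 and LIF with 1, so 5 of the 47231 probes on the array, and 3 of the 10756 genes named, are described. IL6, CXCL1, CXCL2, CXCL3, CCL2, CCL20 and IL1A had no named probe and were not analysed here. Whether unnamed probes of the array measure them, or measure more of the 3 genes described, was not tested. A probe was flagged where its detection p, the chance of such a signal among the negative controls of its array, was under 0.01 on fewer than 3 of the 6 arrays. That flag fell on 1 of the 5 probes, IL32 probe ILMN_1778010.

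RNA came from PC3, an established line of human prostate cancer, carrying a construct from which doxycycline induces the transcriptional coactivator PGC1A. The group without doxycycline (M_DOX) and the group given it for 2 passages (P_DOX) each held 3 bead arrays, replicates 1 to 3, of the same line. Neither separate cultures behind the replicates nor a single clone behind the line is stated in the labels, and p-values here cover the spread among these 6 samples, which may be technical. Doxycycline-treated cells without the construct were not analysed here, and doxycycline and induced PGC1A cannot be told apart. In bulk RNA, more cells making a transcript and more transcript in each cell cannot be told apart either.

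IL-32 is a cytokine of T cells, NK cells and epithelia, with no known mouse counterpart, that induces other inflammatory cytokines. CXCL8 is the chemokine that draws neutrophils through the receptors CXCR1 and CXCR2. LIF, a cytokine of the IL-6 family, signals through LIFR and the shared receptor subunit IL6ST to JAK kinases and STAT3. NF-kappaB, AP-1 and C/EBP factors are the textbook activators of such genes, and decay of their AU-rich transcripts limits their levels.

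The start-site windows of IL32 and CXCL8 are shown because NF-kappaB is a textbook activator of both, and the results below set these genes side by side. They are RefSeq windows on GRCh38.p14, from 250 bases before to 50 after the start, on the plus strand, with capitals marking matches on either strand to GGANNTTCC, a 9-letter form of the NF-kappaB motif. The first IL32 window lies at chr16:3065153-3065452, the second at chr16:3065534-3065833 and that of CXCL8 at chr4:73740319-73740618.
IL32, first start: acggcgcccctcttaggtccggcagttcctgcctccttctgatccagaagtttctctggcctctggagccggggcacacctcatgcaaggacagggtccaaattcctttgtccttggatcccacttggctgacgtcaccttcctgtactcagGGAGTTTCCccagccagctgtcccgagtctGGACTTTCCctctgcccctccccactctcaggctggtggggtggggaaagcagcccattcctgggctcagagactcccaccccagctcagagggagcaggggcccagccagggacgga
IL32, second start: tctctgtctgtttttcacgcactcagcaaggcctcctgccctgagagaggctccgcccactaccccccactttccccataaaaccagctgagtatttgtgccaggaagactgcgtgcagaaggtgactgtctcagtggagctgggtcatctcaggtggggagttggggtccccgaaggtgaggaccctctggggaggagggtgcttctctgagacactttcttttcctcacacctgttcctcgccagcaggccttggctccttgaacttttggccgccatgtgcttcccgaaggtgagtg
CXCL8: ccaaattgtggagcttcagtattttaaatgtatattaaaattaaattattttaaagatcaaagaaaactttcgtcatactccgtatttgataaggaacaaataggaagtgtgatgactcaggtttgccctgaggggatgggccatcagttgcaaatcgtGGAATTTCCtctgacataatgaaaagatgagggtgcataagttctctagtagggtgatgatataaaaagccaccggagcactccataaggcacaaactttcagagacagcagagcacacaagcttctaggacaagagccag
The first IL32 window held 2 matches, which begin 98 and 68 bases before the start, the second held 0, and that of CXCL8 held 1, which begins 91 bases before the start. Of the 35116 windows of all genes, 4.56% held a match. The AP-1 motif TGANTCA, searched on both strands, matched in the CXCL8 window, beginning 137 bases before the start, and in neither IL32 window, against 7.71% of all windows. The 2 motifs did not overlap in the CXCL8 window. LIF had no window in the table. These matches describe letters, not bound sites, and which IL32 start these cells used was not analysed here.

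Across the whole series, 15029 to 16012 probes were detected per array, with raw medians between 60.03 and 68.04. Doxycycline replicate 2 stood apart on the first principal component, at 20.14 against -11.15 to 2.89 for the other 5 arrays. The probe of PPARGC1A, the gene of PGC1A, was near background, with a log2 signal of 5.32 ± 0.34 (SD, n = 3) in M_DOX and 5.36 ± 0.33 (SD, n = 3) in P_DOX. It may lie outside the part carried by the construct, which was not analysed here, and is no check of the labels. The epithelial genes EPCAM, KRT8 and KRT19 were detected on all 6 arrays, and KRT18 on 1 array without and 0 with doxycycline.

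The question the design asks of these genes is whether their transcripts differ once PGC1A is induced. IL32 was below detection on every array without doxycycline on both of its probes. With doxycycline 1 probe was just above detection on all 3 arrays and the other, the flagged one, on 2 of 3. CXCL8 and LIF were detected on all 6 arrays, and neither passed the test of a change. Among 72 genes of 5 related lists, covering other cytokines, receptors, NF-kappaB, RNA decay and AP-1 with C/EBP, 0 passed (limma, adjusted p under 0.05), where 0.539% of all genes tested did. At an unadjusted p under 0.05 there were 11 (15.3%), beside 14.7% of all genes.

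**Figure D1:**
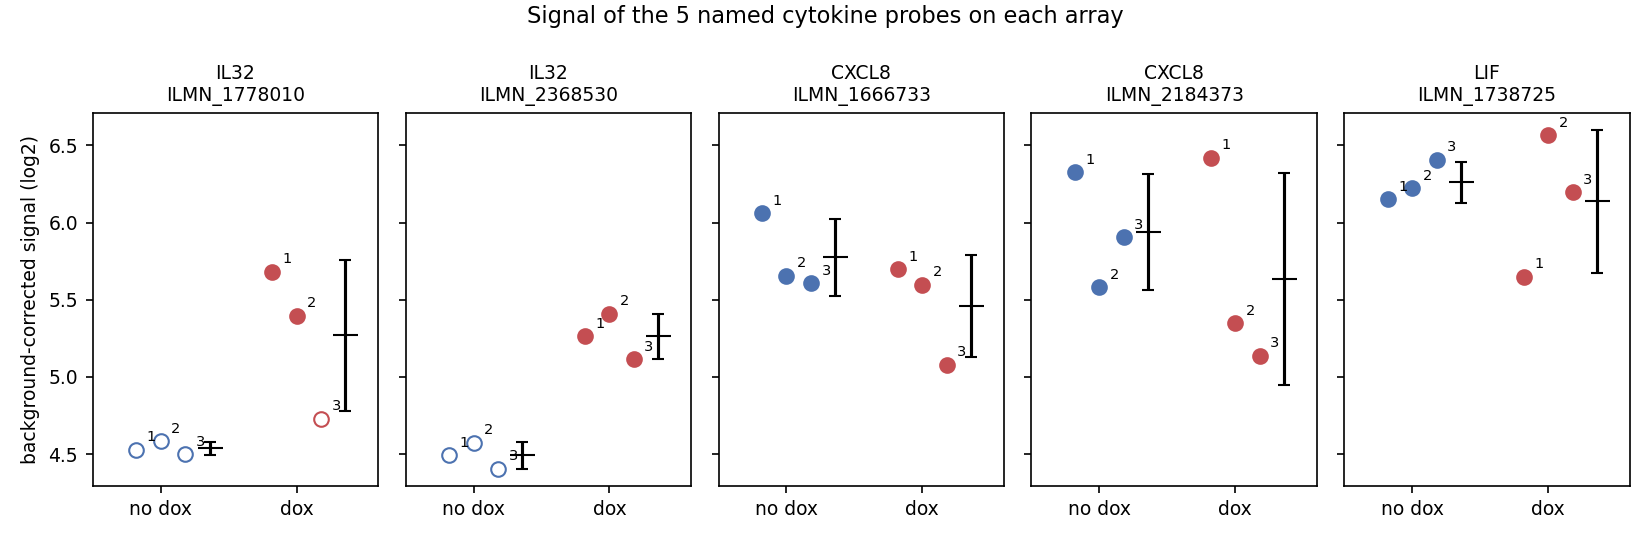
Background-corrected signal (log2) of the 5 probes, 1 panel a probe, with arrays without doxycycline on the left and with it on the right. Points are single arrays with their replicate number, filled where the detection p was under 0.01 and open where it was not, and bars are the mean ± SD of 3 arrays. Both IL32 probes are open at 4.58 or below without doxycycline, while the CXCL8 and LIF groups overlap.

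For IL32 probe ILMN_2368530, raw intensity was 59.1, 64.3 and 53.3 without doxycycline (replicates 1 to 3) and 77.2, 81.6 and 71.2 with it. Its detection p was 0.514, 0.331 and 0.713 without and 0.0039, 0.0013 and 0.00779 with doxycycline. All 3 arrays with doxycycline therefore lay above all 3 without, and the probe crossed the detection threshold between the groups. After background correction the log2 signal was 4.49, 4.57 and 4.41 without and 5.26, 5.41 and 5.12 with doxycycline, with group means of 4.49 ± 0.08 (SD, n = 3) and 5.26 ± 0.15 (SD, n = 3).

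The other IL32 probe, ILMN_1778010, is annotated to another IL32 transcript record. Its raw intensity was 60.7, 64.6 and 58.5 without doxycycline and 90.2, 81.3 and 61.5 with it. With doxycycline, replicates 1 and 2 were above background, at a detection p of 0.0013 each, whereas replicate 3 was not, at 0.122. In log2 signal the arrays without doxycycline were at 4.53, 4.58 and 4.50 and those with it at 5.68, 5.40 and 4.73. The groups did not overlap on this probe either, but its spread with doxycycline (SD 0.49) was wider than on the first probe (SD 0.15). The probes had their highest array in different replicates, and their log2 signals correlated at r = 0.86 over the 6 arrays, a value that includes the difference between the groups.

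Since IL32 was not above background without doxycycline, its fold is a lower bound. It is the mean with doxycycline against the lowest detectable signal of the arrays without it, a mean of 5.16 on the log2 scale. That bound was 1.075-fold higher with doxycycline for ILMN_2368530 and 1.08-fold for ILMN_1778010. For ILMN_1778010 the mean with doxycycline includes replicate 3, which was not above background (log2 signal 4.73), so its bound is not strict. The difference between the measured group means was 0.77 on the log2 scale for ILMN_2368530 and 0.73 for ILMN_1778010. Without background correction these differences were 0.49 and 0.44, with an offset of 50 in place of 16 that of ILMN_2368530 was 0.36, and in the authors' deposited table the probes differed by 0.48 and 0.43. Leaving out 1 array at a time gave differences from 0.70 to 0.84 for ILMN_2368530, with 0.70 when doxycycline replicate 2 was left out.

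No test is given for IL32, because the set was drawn up with its level in this comparison known, and because it passed the detection filter only through the arrays with doxycycline. As background, 21.5% of the 9841 genes tested had groups that did not overlap and 10.2% did so with the higher group being doxycycline.

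CXCL8 probe ILMN_2184373, the brighter of 2, had raw intensities of 122.2, 94.3 and 106.0 without doxycycline and 124.1, 79.9 and 71.8 with it. In log2 signal these were 6.33, 5.58 and 5.91 without and 6.42, 5.35 and 5.14 with doxycycline. Replicate 1 was the highest array in both groups, and the lowest 2 arrays were doxycycline replicates 3 and 2. The group means were 5.94 ± 0.37 (SD, n = 3) and 5.64 ± 0.69 (SD, n = 3), a log2 change of -0.30 (SE 0.33, 95% interval -1.07 to 0.46, limma adjusted p = 0.713). That interval comes from the fit without the replicate number as a block. It spans a fall of more than 2-fold as well as a rise, so this fit leaves a wide range of changes in this chemokine. An interval with the block is not given here.

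The dimmer CXCL8 probe, ILMN_1666733, gave log2 signals of 6.06, 5.66 and 5.61 without doxycycline and 5.70, 5.60 and 5.08 with it. Here too replicate 1 was the highest of its group both times, and doxycycline replicate 3 was the lowest array. Its change of -0.32 (SE 0.18, 95% interval -0.74 to 0.11) had an adjusted p of 0.469 in the limma fit across probes. Within replicate numbers it was lower with doxycycline in 3 of 3, by 0.36, 0.06 and 0.53 (differences of -0.36, -0.06 and -0.53). For the brighter probe the same differences were 0.09, -0.23 and -0.77, lower in 2 of 3. The probes correlated at r = 0.78 over the 6 arrays. Without doxycycline replicate 1 the change of the brighter probe was -0.69 (adjusted p = 0.25), and without doxycycline replicate 3 it was -0.05 (adjusted p = 0.964), so its size rested on single arrays while its sign was negative in each such fit.

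LIF, read by ILMN_1738725, had raw intensities of 113.4, 121.8 and 133.4 without doxycycline and 89.0, 133.0 and 107.2 with it. Its log2 signals were 6.15, 6.22 and 6.41 without and 5.65, 6.57 and 6.20 with doxycycline. The 3 arrays without doxycycline lay inside the range of the 3 with it, which held both the highest and the lowest array. The means were 6.26 ± 0.13 (SD, n = 3) and 6.14 ± 0.46 (SD, n = 3), a log2 change of -0.12 (SE 0.21, 95% interval -0.61 to 0.36, limma adjusted p = 0.821). Without doxycycline replicate 1 the change was 0.12 (adjusted p = 0.726), so its direction turned with 1 array.

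Of the 2 members given a test, CXCL8 and LIF, 0 were called, against 0.539% of all genes tested, and 0 had an unadjusted p under 0.05 in limma. The call was also absent for both with the replicate number as a block (adjusted p = 0.305 for CXCL8 and 0.668 for LIF, against 1.8% of all genes called in that fit).

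**Figure D2:**
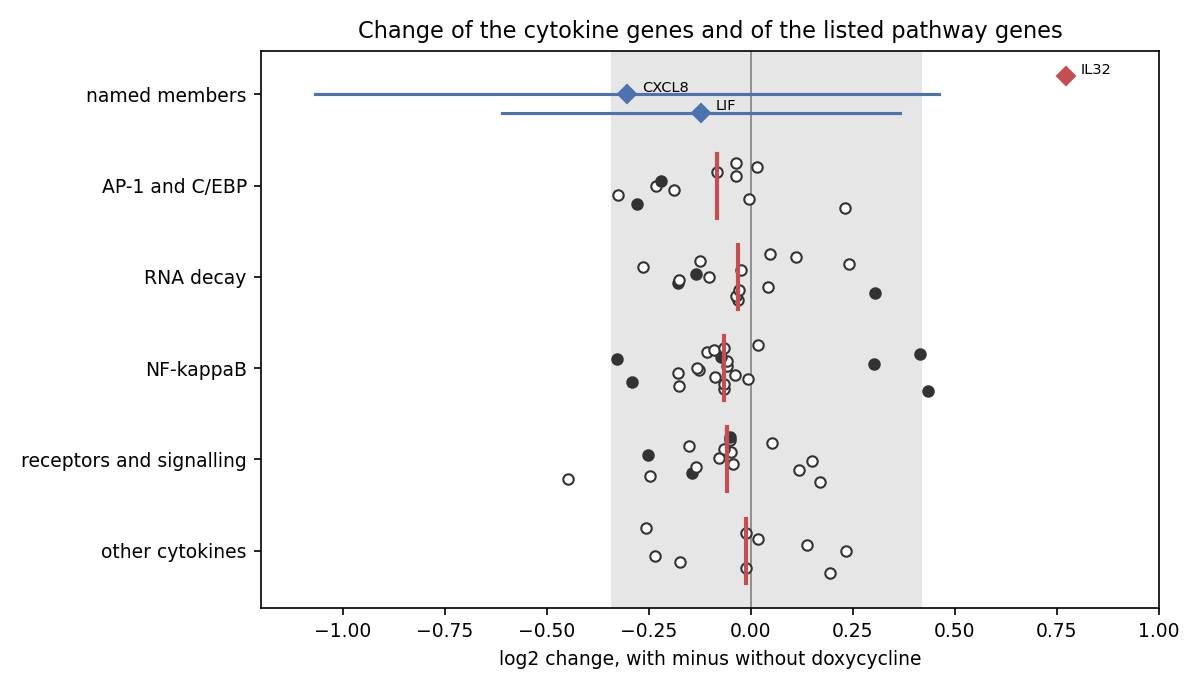
Log2 change, with minus without doxycycline, of the 3 measured cytokine genes (diamonds, with the 95% interval for CXCL8 and LIF; IL32 is drawn at its measured difference of 0.77 with no interval) and of the genes of 5 related lists (circles, filled where the groups did not overlap; vertical bar, list median). The grey band holds the middle 95% of all 9841 genes, from -0.34 to 0.42, and the list medians lie between -0.08 and -0.01.

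Other secreted factors were taken from a list. Of 33 listed cytokines and chemokines, 9 were tested, 4 above and 5 below 0, with a median of -0.01 beside -0.03 over all genes. Over these 9 genes limma called 0, against 0.539% of all genes tested. An unadjusted p under 0.05 (limma) was found for 0, against 14.7% of all genes. Groups did not overlap in 0, against 21.5% of all genes, and 9 genes are few for such shares. MIF, an inhibitor of macrophage migration, was at 12.28 ± 0.03 (SD, n = 3) in M_DOX and 12.27 ± 0.16 (SD, n = 3) in P_DOX (log2 change -0.01, limma adjusted p = 0.961). For IL18, a cytokine that inflammasomes activate, the change was 0.14 (95% interval -0.18 to 0.45, limma adjusted p = 0.682). The neutrophil chemokine CXCL6, which shares CXCL8's receptors and is named after its value was seen, was at -0.23 (limma adjusted p = 0.529). GDF15, a stress-induced cytokine named after its value was seen, ran from 9.54 to 11.47 without and from 9.35 to 12.3 with doxycycline, with replicate 1 the lowest of each group, the reverse of CXCL8.

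On the receptor side, 16 of 31 listed genes were tested, with a median of -0.06. Of the 16, 4 lay above and 12 below 0, against 43.4% of all genes above 0. Limma called 0, against 0.539% of all genes tested. CCR6, the receptor of CCL20, was at 12.05 ± 0.19 (SD, n = 3) in M_DOX and 12.22 ± 0.16 (SD, n = 3) in P_DOX (log2 change 0.17, limma adjusted p = 0.569). TYK2, a kinase of the JAK family, was at -0.05 (limma adjusted p = 0.786). The groups did not overlap in 3 of the 16 (18.8%, against 21.5% of all genes), each lower with doxycycline, as were 11.3% of all genes. These were TYK2 and, named after their values were seen, MYD88, the adaptor of IL-1 receptors (-0.25, limma adjusted p = 0.245), and IL6ST, the signalling subunit that LIF and IL-6 share (-0.14, limma adjusted p = 0.455). The ligand-specific partner LIFR was detected on 0 arrays without and 1 array with doxycycline, and CXCR2, a receptor of CXCL8, likewise on 0 and 1, so neither entered the fit. The probe of STAT3 was detected on 1 array without and 0 with doxycycline and did not enter it either.

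Among NF-kappaB genes, 21 of 30 were tested, with a median of -0.07 beside -0.03 over all genes. Of the 21, 4 lay above and 17 below 0, against 43.4% of all genes above 0. Limma called 0, against 0.539% of all genes tested. The subunit gene NFKB1 was at 11.07 ± 0.14 (SD, n = 3) in M_DOX and 10.89 ± 0.17 (SD, n = 3) in P_DOX (log2 change -0.18, limma adjusted p = 0.514). SOD2, the mitochondrial superoxide dismutase and an NF-kappaB target, was at 10.56, 10.59 and 10.51 without and 10.87, 11.19 and 10.86 with doxycycline. Its groups did not overlap, and the change of 0.41 (SE 0.11, limma adjusted p = 0.148) missed the threshold. In all, 6 of the 21 did not overlap (28.6%, against 21.5% of all genes). Higher with doxycycline were SOD2, BCL3 (0.43, limma adjusted p = 0.19) and NFKBIE (0.30, limma adjusted p = 0.259). BCL3 is an atypical and NFKBIE a classical protein of the IkB family, named for inhibition of NF-kappaB. Lower were the urokinase gene PLAU (-0.33, limma adjusted p = 0.286), the adhesion molecule ICAM1 (-0.29, limma adjusted p = 0.249) and the subunit RELA (-0.07, limma adjusted p = 0.699). All but SOD2 are named after their values were seen, and textbook targets lay on both sides.

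The last lists cover other regulators. Of 17 RNA decay genes, 15 were tested, with a median of -0.03, the same as over all genes. In this list 5 lay above and 10 below 0, against 43.4% of all genes above 0. Limma called 0, against 0.539% of all genes tested. The groups did not overlap in 3 of the 15 (20.0%, against 21.5% of all genes), 1 higher and 2 lower with doxycycline. The higher was CNOT8, a deadenylase subunit (0.30, limma adjusted p = 0.299), and the lower were HNRNPD and TIA1, a translational repressor (-0.13, limma adjusted p = 0.487, with probes of opposite sign), CNOT8 and TIA1 being named after their values were seen. HNRNPD, a binder of AU-rich transcripts, was at -0.18 (limma adjusted p = 0.423), with its 2 probes of opposite sign, and CNOT1, the scaffold of the deadenylase complex, at -0.03 (limma adjusted p = 0.874). Of 12 AP-1 and C/EBP genes, 11 were tested, with a median of -0.08 beside -0.03 over all genes. Here 2 lay above and 9 below 0, and 0 were called, against 0.539% of all genes tested. The groups did not overlap in 2 of the 11 (18.2%, against 21.5% of all genes). Both were lower with doxycycline, as were 11.3% of all genes, and are named after their values were seen. These were CEBPA, a C/EBP factor (-0.28, limma adjusted p = 0.269), and FOSL1, an AP-1 subunit (-0.22, limma adjusted p = 0.334). CEBPD, another C/EBP factor named after its value was seen, was at -0.33 (limma adjusted p = 0.314) with overlapping groups. The AP-1 subunit JUND was at -0.03 (limma adjusted p = 0.934) and CEBPB, a C/EBP factor of cytokine promoters, at -0.01 (limma adjusted p = 0.987).

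IL32 is also a transcript of lymphocytes, so leukocyte markers were measured beside it. Of 18 listed markers, 5 had a named probe and 4 were tested: CD68, CD2, CD79A and CD14, all 4 below 0 with doxycycline (from -0.42 to -0.16). Of these 4 markers 0 were called, against 0.539% of all genes tested. Their summed linear signal with MS4A1 ran from 308.0 to 362.3 without and from 258.8 to 325.2 with doxycycline. The T and NK cell marker CD2 was at 6.10 ± 0.16 (SD, n = 3) in M_DOX and 5.90 ± 0.16 (SD, n = 3) in P_DOX (limma adjusted p = 0.473). The B cell marker CD79A was at 5.68 ± 0.20 (SD, n = 3) and 5.25 ± 0.14 (SD, n = 3) (limma adjusted p = 0.19, and 0.0477 with the replicate block), and the monocyte marker CD14 was detected on 3 and 1 arrays. The macrophage marker CD68, which carcinoma lines also express, was at 7.18 ± 0.21 (SD, n = 3) in M_DOX and 7.02 ± 0.20 (SD, n = 3) in P_DOX. The B cell marker MS4A1 was detected on 0 and 1 arrays. CD2 was the only T or NK cell marker measured: PTPRC, CD3D, CD3E, CD3G, NKG7 and GNLY were not analysed here, and the part of such cells in the IL32 result was not tested. Of 11 fibroblast and endothelial markers, 6 had a named probe and 4 were tested: COL1A2, LUM, COL1A1 and PECAM1, from -0.41 to 0.33. Limma called 0, against 0.539% of all genes tested. The groups did not overlap in 1, LUM, higher with doxycycline (8.59 in M_DOX and 8.92 in P_DOX, limma adjusted p = 0.19). PECAM1 was detected on 3 and 1 arrays. The summed signal of the 4, with COL3A1 and DCN, ran from 2387 to 2657 without and from 2263 to 2781 with doxycycline. COL1A2 was the brightest in that sum, at 10.95 in M_DOX and 10.92 in P_DOX.

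The genes whose log2 signal ran most like that of IL32 over the 6 arrays were picked from the other 9840 genes tested by Pearson's r. The top 5 were ESRRA (r = 0.998), TATDN2 (r = 0.996), TCAF1 (r = 0.994), NDRG3 (r = 0.993) and CKB (r = 0.993). ESRRA encodes ERR-alpha, the orphan nuclear receptor that PGC1A coactivates, and CKB the brain-type creatine kinase. ESRRA was at 8.01, 8.07 and 7.98 without and 8.50, 8.61 and 8.45 with doxycycline, with all 3 arrays of each group detected. The IL32 values behind r are those of ILMN_2368530. Without doxycycline they lay below detection, so their order there is not read as expression. That order still enters r over the 6 arrays, so r and the ranking rest in part on background signal. With doxycycline the highest array was replicate 2 on this probe and replicate 1 on ILMN_1778010. The change of ESRRA was 0.50 (limma adjusted p = 0.0502), and that of CKB 0.58 (limma adjusted p = 0.056). The most opposite were EIF3I (r = -0.991), HNRNPM (r = -0.991) and GDPD3 (r = -0.987). GDPD3 was detected on 3 arrays without and 0 with doxycycline, so its own values also rest in part on background signal. CXCL8 was at r = -0.30 with IL32 and LIF at r = -0.15. These values come from 6 arrays that share the group difference, are the extremes of 9840 genes, and are a description only.

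**Figure D3:**
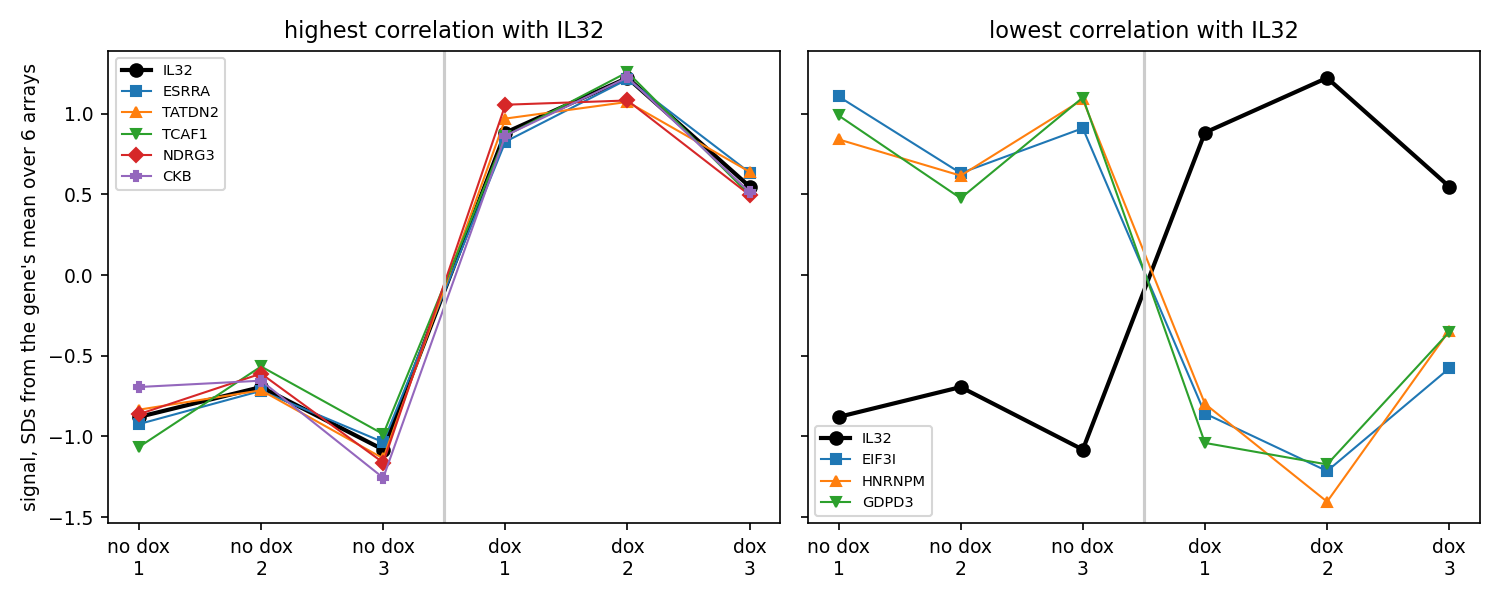
Signal on each of the 6 arrays, in SDs from each gene's own mean, for IL32 (black) with the 5 genes of highest (left) and the 3 of lowest (right) correlation. Lines only join the points of a gene, since replicates have no order. ESRRA (r = 0.998) is higher on all 3 arrays with doxycycline and EIF3I (r = -0.991) lower; the IL32 points without doxycycline are below detection.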

How the data were processed

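Bead-array signal was measured in 6 samples, 3 a group, mapped by their titles. The authors deposited a table of probe intensity on a linear scale (47231 probes) with a detection p-value for each, per the file headers, and the array medians differ, so it was not normalized between arrays. They also deposited processed log2 values of 17925 probes whose columns share 1 set of quantiles; lumi is named per the submitters' processing notes, without a version. Scanner software is not given in the sources used here.

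Intensities were background-corrected with normexp by detection p (offset 16), quantile-normalized and taken to log2 (neqc, limma 3.58.1, R 4.3.3). Probes detected on at least 3 of 6 arrays (15542) were kept. Names came from the platform annotation, which lists 13981 of the 17925 probes, 13977 with 1 gene, 4 with several (unused), and the other probes unnamed here. Symbols were updated by Entrez number through RefSeq GRCh38.p14 (13970 matched). The probe with the highest mean stood for a gene, giving 9841 genes. Of 2302 genes with several tested probes, 866 had probes of opposite sign. Groups were compared with lmFit and eBayes, two-sided, with Benjamini-Hochberg adjustment over all genes tested, called under 0.05. The fit was checked on simulated data. The precision is limited by 3 arrays a group.

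The members and lists were chosen with earlier results of these data known. The naming rule took every member, from each list up to 3 called genes or else the 2 of highest mean signal, markers detected on 3 or more arrays, and the 5 most and 3 least IL32-like genes. Replicate numbers paired the samples: deviations from the group means correlated at 0.454, 0.523 and 0.299 for replicates 1, 2 and 3. The alternatives were no background correction, an offset of 50, the authors' table, other detection filters, other probe rules, the replicate block, a variance trend and leaving out each array. The headers name no slides, so a slide block was not run.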

Additional observations from a re-analysis of the deposited data

How the results depend on the processing

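The count of 0 called among CXCL8 and LIF, and of 0 among the 72 listed genes (67 to 79 tested under other filters), was 0 under every alternative run, including the replicate block. The count over all genes was less stable. Against 53 it was 81 without background correction, 80 with an offset of 50, 81 on the authors' deposited table, 30 with no detection filter, 106 in the fit on probes, 100 with a variance trend, 177 with the replicate block, and from 1 to 9 when 1 array was left out. The cause was not tested, except that leaving out an array leaves fewer samples and the fit on probes tests more features. The block ended or made no call among CXCL8, LIF and those 72 genes, and called 1 leukocyte marker, CD79A. Leaving out 1 array at a time, the LIF change ran from -0.34 (without doxycycline replicate 2) to 0.12, reversed, without doxycycline replicate 1. The IL32 difference was above 0 under every alternative that gave a value. These alternatives reuse the arrays through which IL32 was chosen and passed the filter, so that sign is no separate evidence. Under the filter for probes detected on all 6 arrays it had none, and with no detection filter its other probe stood for it, at 0.73. Over the background settings the IL32 difference ran from 0.36 to 0.77. Over the same settings the CXCL8 change ran from -0.30 to -0.16 and the LIF change from -0.12 to -0.07. Of these genes only IL32 was below detection without doxycycline.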
